A study of Mus musculus with 32 samples.

Results

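Vinclozolin (VZ) and bis(2-ethylhexyl) phthalate (DEHP) were set directly against each other in exposed fetal prospermatogonia, the male germ cells that later found the spermatogonial line. The arrays titled G1R VZ M (3 arrays) and G1R DEHP M (3 arrays) were chosen by their titles alone, 6 of the 32 arrays of the series, and the oil arrays took no part in the difference. Pregnant dams received 100 mg/kg of VZ or 750 mg/kg of DEHP per day by mouth from 12.5 dpc (days post coitum), and the fetuses were collected at 17.5 dpc. All 6 arrays carried RNA of male FVBxOG2 fetuses, from an FVB dam and an OG2 father, whose germ cells were sorted by the EGFP signal of the OG2 transgene. That transgene is driven by the Oct4 promoter, so the sort takes cells by the activity of 1 promoter. G1R denotes germ cells that were reprogrammed inside the directly exposed fetus. G1R males of dams given oil alone (3 arrays) or bisphenol A (BPA, 0.2 mg/kg per day, 3 arrays) gave levels for context. Female germ cells of the same generation (G1R, 3 VZ and 2 DEHP arrays) served for comparison. So did male germ cells of the following generation, which was not dosed (G2R, 3 arrays each). The G2R fetuses came from the opposite cross, labelled OG2xFVB, and the study states that G1R and G2R samples were not run at the same time, so generation, cross and run time cannot be told apart. The agents were given at different doses, so agent and dose cannot be told apart, and the run names in the study's sample list place the DEHP male arrays before the VZ male arrays, so agent and place in the run cannot be told apart either. The run name of DEHP array 2 carries an added letter R whose meaning is not stated. The labels do not say whether the 3 arrays of a group came from separate litters. Unless said otherwise, every p-value rests on the spread between arrays within groups, pooled over all 11 groups of the series. That spread may be partly technical.

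VZ is a dicarboximide fungicide whose metabolites are anti-androgenic, and DEHP is a phthalate plasticizer whose monoester activates peroxisome proliferator-activated receptors (PPARs) in rodents. The agents are not analogs of each other. At the age of collection prospermatogonia rest in mitotic arrest, express the piRNA pathway that silences transposons, and lay down new DNA methylation. Genes of the G2 and M phases are mostly transcribed in dividing cells. Small nucleolar RNAs (snoRNAs) guide chemical modification and cleavage of ribosomal and small nuclear RNA, and in mammals most of them are cut from the introns of host genes.

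Signals are log2 values after robust multichip averaging (RMA), and each difference below is VZ minus DEHP on the log2 scale, so that 1 unit stands for a doubling. The 6 arrays had medians of 7.46 to 7.48 over the 35556 probes. Genes of prospermatogonia were far above the mean of all genes, with list means of 10.23, 10.29 and 10.27 in the VZ arrays and 10.24, 10.22 and 10.22 in the DEHP arrays, against 7.72 to 7.76 over all 19938 genes. Arrays of VZ correlated with each other at 0.992 in every pair, and arrays of DEHP at 0.989 in every pair, over probes, which are not independent replicates. Correlations between a VZ and a DEHP array ran from 0.988 to 0.993, so the pairs across agents were not all below the pairs within an agent. DEHP array 3 lay among the VZ arrays on the first principal component, although all DEHP pairs correlated alike. On the first principal component of the 12 G1R male arrays (21.3% of the variance), the VZ arrays lay at 24.8, 18.7 and 20.4, and DEHP arrays 1, 2 and 3 at -1.82, 6.7 and 21.8. Among the 6 arrays alone, DEHP arrays 1, 2 and 3 lay at -29.8, -18.2 and 11.7 on the first component. On the second component they lay at -17.7, 25.8 and -16.2, so array 2 stood apart there. Results that rest on DEHP array 3 are given with and without it.

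No probe separated VZ from DEHP after correction for multiple tests. In limma, fitted with a mean per group over all arrays, 0 of 35556 probes (0%) had an adjusted p under 0.05, and the smallest adjusted p was 0.848. At an unadjusted p under 0.05 there were 1443 probes (4.06%), of which 708 (1.99%) were higher in VZ and 735 (2.07%) were lower. At 1.5-fold and the same p there were 248 (0.697%), and all 1443 (4.06%) also reached the study's looser fold threshold. All 3 VZ arrays lay on one side of all 3 DEHP arrays at 3997 probes (11.2%), 2007 (5.64%) above and 1990 (5.60%) below. Over the 6 arrays, 22.2% of the variance lay between the agents. Any split of 6 arrays into 3 and 3 puts part of the variance between groups, so this share alone shows no difference. A single comparison of 3 arrays with 3 cannot give a two-sided p below 0.1 in an exact permutation test.

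These counts do not show that the agents act alike, and the intervals give the room that is left. The median half-width of the 95% confidence interval of a difference was 0.25, or 1.19-fold. For 21123 of the 21789 probes that name a single gene (96.9%), the whole interval lay within 1.5-fold in either direction. Over all probes this held for 29881 (84.0%), and 34429 (96.8%) had an interval within 2-fold. The genes described next are those with the smallest p or members of gene lists.

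**Figure D1:**
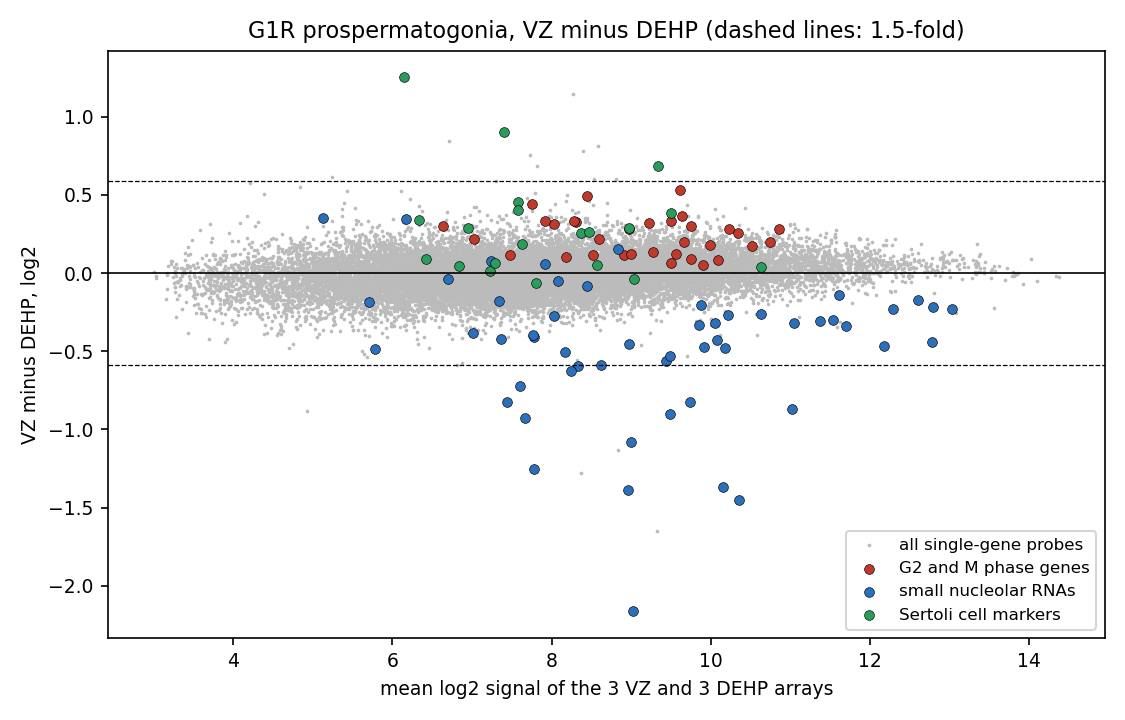
Difference between VZ and DEHP (VZ minus DEHP, log2, vertical axis) against the mean log2 signal of the 6 arrays (horizontal axis), 1 point per single-gene probe, with the members of 3 gene lists in colour and dashed lines at 1.5-fold. Genes of the G2 and M phases lie above 0 throughout, 49 of 54 snoRNAs lie below 0, and the dim Cst9 is the highest point at 1.25.

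Genes of the cell cycle led the list of those higher in VZ, each without passing the test. Plk4, the kinase that starts centriole duplication, had the smallest p of any single-gene probe. Its log2 signals were 8.93, 8.85 and 8.99 in VZ cells and 8.64, 8.33 and 8.46 in DEHP cells, so the lowest VZ array was above the highest DEHP array. The difference was 0.45 (SE 0.099, unadjusted p = 0.000121, limma adjusted p = 0.848). Ccna2, cyclin A2 of the S and G2 phases, had 9.96, 9.75 and 9.92 in VZ cells and 9.41, 9.34 and 9.28 in DEHP cells, a difference of 0.53 (SE 0.137, unadjusted p = 0.000676). Top2a, the topoisomerase that untangles sister chromatids, had 9.77, 9.81 and 9.89 in VZ cells and 9.43, 9.40 and 9.56 in DEHP cells, a difference of 0.36 (unadjusted p = 0.00104). Neither overlapped between the agents.

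Of 34 genes listed for the G2 and M phases, 33 were measured, and all 33 had a positive difference, against 47.5% of all genes, with a median of 0.22 against -0.01 over all genes. At an unadjusted p under 0.05 there were 18 members higher in VZ and 0 lower, against 1.47% of all 19938 genes higher and 2.04% lower. None had an adjusted p under 0.05. In 22 of the 33, every VZ array was above every DEHP array, which held for 4.93% of all genes. The mean over the list was 9.24, 9.18 and 9.23 in the VZ arrays and 9.02, 8.93 and 8.996 in the DEHP arrays. The oil arrays of the same cells ranged from 8.92 to 9.11 and the BPA arrays from 8.98 to 9.26, so both ranges reached above DEHP and the BPA range also reached the VZ arrays. In sorted cells a larger share of cells that carry these transcripts and more transcript per cell cannot be told apart. Markers of Sertoli cells, a somatic cell type that the sort should remove, lay on the same side, with 18 of 20 higher in VZ and a median of 0.26. Their list mean was 8.25, 7.97 and 7.94 in the VZ arrays and 7.65, 7.89 and 7.73 in the DEHP arrays. BPA arrays 1, 2 and 3 stood in the same order in both lists. They had 9.26, 9.11 and 8.98 for the G2 and M phase genes and 8.96, 8.52 and 7.79 for the Sertoli markers. VZ array 1 was the highest VZ array in both lists, but the DEHP arrays stood in reverse order between the lists. Oil array 2 was the highest oil array for the G2 and M phase genes (9.11) and the lowest for the Sertoli markers (7.61). The part of Sertoli cell RNA in the G2 and M phase difference was not tested.

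Several parts of the mitotic machinery were among these members, and those named here besides Kif23 were chosen after their values were seen. Cdk1, the kinase that drives entry into mitosis, had 8.93, 8.48 and 8.66 in VZ cells and 8.22, 8.28 and 8.09 in DEHP cells, with a difference of 0.49 (unadjusted p = 0.0112). Ndc80, which holds microtubules at the kinetochore, had 7.93, 7.95 and 8.06 in VZ cells and 7.65, 7.28 and 7.68 in DEHP cells, with a difference of 0.44 (unadjusted p = 0.00615). Kif23, a motor of the central spindle in cytokinesis, had 9.88, 9.94 and 9.90 in VZ cells and 9.70, 9.49 and 9.62 in DEHP cells, with a difference of 0.30 (unadjusted p = 0.00123). All 3 genes separated the agents without overlap. Kif11, the motor that pushes spindle poles apart, had 9.43, 9.39 and 9.33 in VZ cells and 9.05, 9.03 and 9.11 in DEHP cells (difference 0.32, unadjusted p = 0.00714). Ncapg, a condensin subunit, had 9.64, 9.59 and 9.75 in VZ cells and 9.41, 9.18 and 9.39 in DEHP cells (difference 0.33, unadjusted p = 0.00597). The spindle assembly factor Tpx2 and the checkpoint kinase Bub1b also had p-values under 0.01, with unadjusted p = 0.00838 for Tpx2 and unadjusted p = 0.00967 for Bub1b. The smallest differences came from other members of the same machinery, such as the condensin subunit Ncapd2 (unadjusted p = 0.724) and the phosphatase Cdc25b (unadjusted p = 0.52), whose arrays overlapped.

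**Figure D2:**
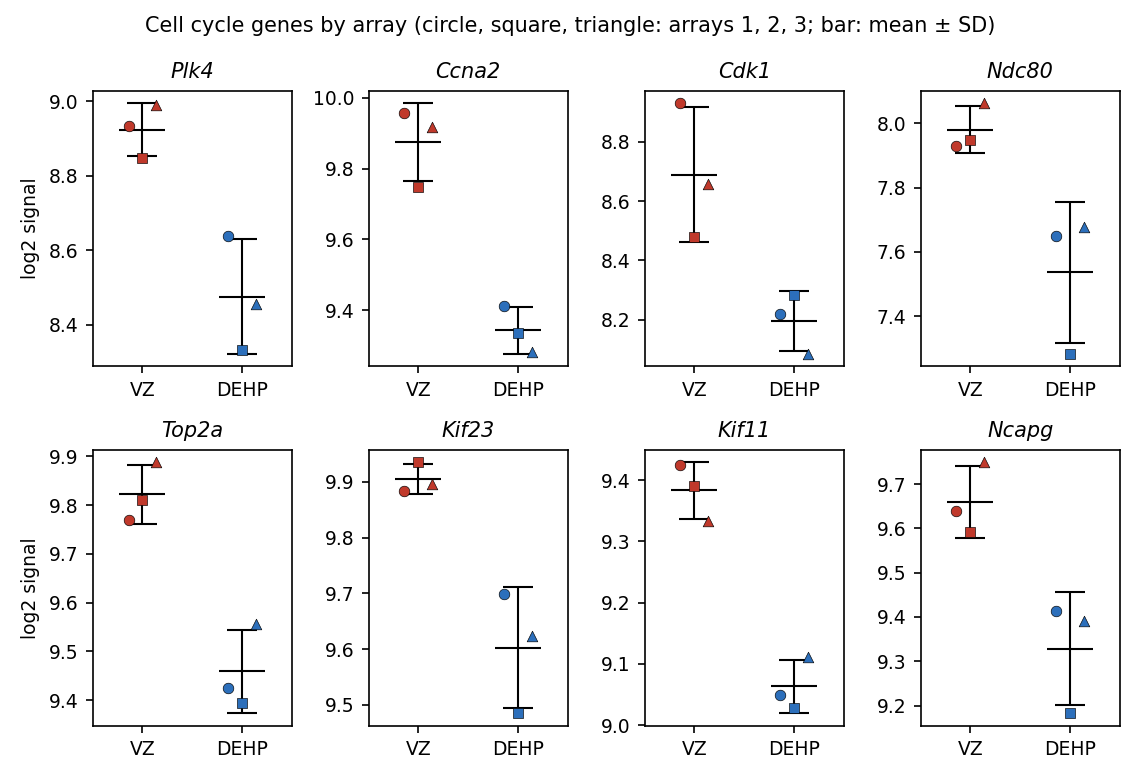
Log2 signals of 8 cell cycle genes in the 3 VZ arrays (left, red) and the 3 DEHP arrays (right, blue), with the mean and SD as bars and a scale of its own for each gene. In all 8 genes the lowest VZ array lies above the highest DEHP array, and the differences run from 0.30 in Kif23 to 0.53 in Ccna2.

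The promoters of many G2 and M phase genes hold a cell cycle genes homology region, with the letters TTTGAA, and a CCAAT box. They are shown because these genes had the same sign throughout. RefSeq promoters (assembly GRCm38.p6) matched 27 of the 33 genes, with 29 start sites. In the 100 bases before the start, TTTGAA on either strand was found in 7 of 29 (24.1%) of these promoters, against 5.77% of all 32851 promoters of the same length. CCAAT on either strand was found in 19 of 29 (65.5%), against 18.9% of all. Neither motif contains the other. Among the promoters of members at an unadjusted p under 0.05, TTTGAA was in 5 of 16 (31.25%) and CCAAT in 10 of 16 (62.5%). These shares describe the list and not the difference between the agents. Such a match is a description of letters and does not show that a factor binds there. Of the 7 genes with TTTGAA, the 4 with the smallest p are printed, and Prc1, Mki67 and Cdc20 are left out. The 4 windows below run from 5′ to 3′ on the gene's strand up to the base before the start, with either motif in capitals, and lie at chr11:99024190-99024289 (minus strand) for Top2a, chr5:45669825-45669924 (plus strand) for Ncapg, chr19:37376282-37376381 (plus strand) for Kif11 and chr10:69352913-69353012 (minus strand) for Cdk1.
Top2a: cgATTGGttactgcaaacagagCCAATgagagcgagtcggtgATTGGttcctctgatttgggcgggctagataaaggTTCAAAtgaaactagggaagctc
Ncapg: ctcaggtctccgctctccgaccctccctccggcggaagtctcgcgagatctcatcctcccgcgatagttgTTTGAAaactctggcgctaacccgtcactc
Kif11: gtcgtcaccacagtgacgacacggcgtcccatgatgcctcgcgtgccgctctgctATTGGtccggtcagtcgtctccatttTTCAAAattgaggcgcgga
Cdk1: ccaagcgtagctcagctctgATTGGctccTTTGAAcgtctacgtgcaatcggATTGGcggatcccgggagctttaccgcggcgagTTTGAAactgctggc
TTTGAA, or TTCAAA where it reads on the other strand, begins 23 bases before the start in Top2a, 30 in Ncapg and 19 in Kif11, and in Cdk1 at both 71 and 15 bases before it.

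Genes of DNA replication licensing, which load and fire the origins before S phase, leaned the same way with smaller values. Of 35 measured, 29 had a positive difference and the median was 0.08, but only Orc1 (0.23) and Prim1 (0.29), of the origin recognition complex and the primase, had an unadjusted p under 0.05, where 1.47% of all genes were higher in VZ. Clspn, an adaptor of the replication checkpoint, was among the smallest p-values of all genes, with 7.45, 7.48 and 7.64 in VZ cells and 7.17, 7.18 and 7.12 in DEHP cells (difference 0.37, unadjusted p = 0.00108). G1 cyclins and cell cycle inhibitors showed no common direction. Of 22 measured, 11 were higher and 11 lower, with a median of -0.01, and the pocket protein gene Rbl2 (0.28) and the transcription factor gene E2f3 (-0.28) had unadjusted p-values under 0.05 in opposite directions. Histone genes, a list that also took in variant genes such as H2az1, were split at 22 higher and 22 lower, with a median of 0.00.

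snoRNAs showed the opposite sign and the largest differences of any list. Of 54 measured, 49 were lower in VZ, with a median of -0.40, and in 11 every VZ array was below every DEHP array (6.05% of all genes). At an unadjusted p under 0.05 there were 22 lower (2.04% of all genes were) and 0 higher (1.47% of all genes were), and none had an adjusted p under 0.05 in the fit of all arrays. Among those named as H/ACA box snoRNAs, which guide pseudouridylation, 20 of 20 were lower, 16 of them at an unadjusted p under 0.05, with a median of -0.66. Among those named as C/D box snoRNAs, which guide 2′-O-methylation, 27 of 31 were lower, 5 of them at that p, with a median of -0.32. The list mean was 9.01, 9.11 and 8.88 in the VZ arrays and 9.45, 9.87 and 9.09 in the DEHP arrays. DEHP array 3 lay among the VZ arrays, DEHP array 2 was the highest of the 6, and the oil arrays ranged from 9.45 to 9.62, near DEHP arrays 1 and 2.

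Single snoRNAs show the same layout. Snora33 had 8.23, 7.70 and 7.91 in VZ cells and 10.50, 11.46 and 8.37 in DEHP cells, with a difference of -2.16 (SE 0.572, unadjusted p = 0.000888, limma adjusted p = 0.873). Its SD was 1.58 in the DEHP arrays and 0.27 in the VZ arrays. The fit assumes a like spread in every group, so this p may understate the spread of the DEHP arrays. The agents did not overlap, but DEHP array 3 was close to the VZ arrays and more than 2 log2 units below the other DEHP arrays. Snora73a had 9.52, 10.12 and 9.26 in VZ cells and 11.32, 11.78 and 10.17 in DEHP cells (difference -1.45, unadjusted p = 0.000599). Snora73b had 9.37, 9.89 and 9.17 in VZ cells and 11.04, 11.37 and 10.13 in DEHP cells (difference -1.37, unadjusted p = 0.000547). These 2 are near copies of each other, and their probes may share signal, so they are not separate evidence. Snora41 had 7.08, 7.42 and 7.11 in VZ cells and 8.40, 8.33 and 7.66 in DEHP cells (difference -0.93, unadjusted p = 0.000505). In all 4 the lowest DEHP array was array 3. The C/D box RNA Rnu3a, the U3 snoRNA that acts in cleavage of the ribosomal RNA precursor, lies outside the list and was singled out after its values were seen. It had 8.57, 8.80 and 8.13 in VZ cells and 10.53, 11.29 and 8.62 in DEHP cells (difference -1.65, unadjusted p = 0.00244), and DEHP array 3 was below VZ array 2. The same limit holds for Rnu3a, with an SD of 1.37 in the DEHP arrays and 0.34 in the VZ arrays.

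Host genes of snoRNAs were mixed. Snhg17, a noncoding host, had 8.42, 8.45 and 7.96 in VZ cells and 9.38, 10.36 and 8.47 in DEHP cells, with a difference of -1.13 (unadjusted p = 0.00842). Of the 6 noncoding host genes measured, 5 were lower in VZ, Snhg17 and Snhg15 (-0.38) at an unadjusted p under 0.05, where 2.04% of all genes were lower. The 4 probes of Gas5, another host, disagreed, since a dim one had a difference of 0.62 and the brightest, used for the list, had a difference of -0.23 (unadjusted p = 0.112). Taf1d, which encodes a subunit of the selectivity factor of RNA polymerase I and in human carries snoRNAs in its introns, had 8.08, 8.03 and 8.01 in VZ cells and 8.61, 8.79 and 8.38 in DEHP cells (difference -0.55, unadjusted p = 0.000618). Cytosolic ribosomal protein genes, several of which host snoRNAs, leaned to the other side, with 52 of 61 higher in VZ and a median of 0.05. That lean was not particular to G1R males, since 47 of 61 were higher in G1R females (median 0.05) and 51 of 61 in G2R males (median 0.04).

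The snoRNA result depends on single arrays more than the cell cycle result does. Without DEHP array 3, the median over the snoRNAs was -0.59 with 31 of 54 members at an unadjusted p under 0.05, and 9 of 35556 probes had an adjusted p under 0.05 in limma (1916 at an unadjusted p under 0.05). Among these 9 were Snora33 (-3.03, adjusted p = 0.0292), Rnu3a (-2.41, adjusted p = 0.0425) and the microRNA gene Mir3068 (-0.82, adjusted p = 0.0345), and the other 6 probes are not listed in the annotation. Without DEHP array 2, the median was -0.21 and 6 members had an unadjusted p under 0.05, and without VZ array 3, 11 members did. For the G2 and M phase list, leaving out any 1 of the 6 arrays left a median of 0.19 to 0.26 and 11 to 16 members at an unadjusted p under 0.05. The lowest of these counts came without VZ array 1 or DEHP array 2. Of all 35556 probes, 1098 to 1916 had an unadjusted p under 0.05 when single arrays were left out.

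**Figure D3:**
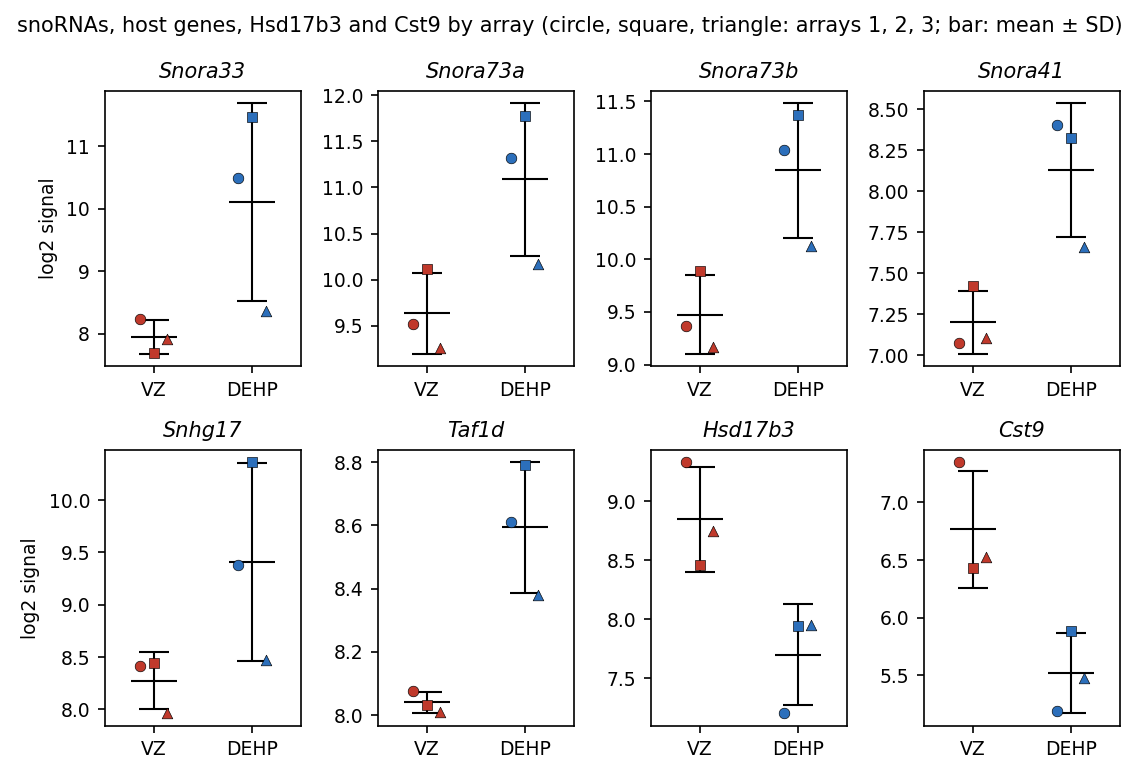
Log2 signals of 4 snoRNAs, the host genes Snhg17 and Taf1d, Hsd17b3 and Cst9 in the 3 VZ arrays (left, red) and the 3 DEHP arrays (right, blue), with the mean and SD as bars and a scale of its own for each gene. The triangle of DEHP array 3 is the lowest DEHP value of the snoRNAs and both host genes, such as 8.37 in Snora33.

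Other genes lower in VZ came from several functions, each short of the test. Sgpp2, a phosphatase of sphingosine 1-phosphate, had 8.19, 7.92 and 8.15 in VZ cells and 8.43, 8.53 and 8.29 in DEHP cells (difference -0.33, SE 0.081, unadjusted p = 0.000417). Khdc3, a member of the subcortical maternal complex of the oocyte, had 6.43, 6.43 and 6.68 in VZ cells and 6.94, 6.90 and 6.87 in DEHP cells (difference -0.39, unadjusted p = 0.000501). Neither overlapped between the agents. The ephrin gene Efna3 (-0.46), the atypical cadherin gene Fat3 (-0.58), the neuronal motor gene Kif1a (-0.32) and Hapln2 (-0.42), which encodes a link protein of the extracellular matrix, were also lower in VZ in every pair of arrays, and Mpv17l2 (-0.30), of the mitochondrial ribosome, overlapped. Among those higher in VZ were Alg5 of N-glycan synthesis (0.36), Fam220a (0.35), Pdcd10 of the cerebral cavernous malformation complex (0.48), Cip2a, an inhibitor of protein phosphatase 2A (0.34), the TGF-beta receptor gene Tgfbr1 (0.25), Fam83f (0.37) and Dhcr7, the last enzyme of cholesterol synthesis (0.28). All 7 separated the agents without overlap.

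At 1.5-fold and an unadjusted p under 0.05, 21 single-gene probes remained of 21789, 5 higher in VZ and 16 lower. Of the 16, 14 belonged to snoRNAs or their noncoding host genes, and the others were Rnu3a and the dipeptidase gene Dpep2 (-0.59). The 5 were Hsd17b3, Akr1cl, Prdx2 and the dim probes of Cst9 and Gas5.

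Hsd17b3, the testicular enzyme that makes testosterone out of androstenedione and that fetal Sertoli cells express in mouse, had 9.33, 8.46 and 8.75 in VZ cells and 7.21, 7.95 and 7.95 in DEHP cells. All VZ arrays were above all DEHP arrays, and the difference was 1.15 (SE 0.430, 95% interval 0.26 to 2.03, unadjusted p = 0.0132, limma adjusted p = 0.999). Mean signals were 7.66 in oil and 9.01 in BPA males, so the VZ mean of 8.85 lay between them and the DEHP mean of 7.70 near the oil mean. Of the 20 markers of Sertoli cells, the somatic cells that surround prospermatogonia, 1, the cystatin gene Cst9, had an unadjusted p under 0.05 (3.51% of all genes did). Cst9 had 7.35, 6.43 and 6.52 in VZ cells and 5.19, 5.88 and 5.48 in DEHP cells (difference 1.25, unadjusted p = 0.00898). The Sertoli list mean ran from 7.94 to 8.25 in VZ, from 7.65 to 7.89 in DEHP and from 7.61 to 7.96 in oil arrays. VZ array 1 was the highest of the 6 for this list, for Hsd17b3 and for Cst9. Without VZ array 1, the Sertoli median was 0.16 with 0 members at an unadjusted p under 0.05, with only the 6 arrays in the fit 6 members reached that p, and over the fits that left out 1 array the difference of Hsd17b3 ran from 0.90 to 1.34.

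Single Sertoli markers varied within each agent. Fshr, the receptor of follicle-stimulating hormone, had 6.63, 6.56 and 6.33 in VZ cells and 6.16, 6.26 and 6.09 in DEHP cells, without overlap (difference 0.34, unadjusted p = 0.0601). Amh, the hormone that regresses the Müllerian ducts, had 8.44, 7.33 and 7.77 in VZ cells and 6.53, 7.47 and 6.85 in DEHP cells, and the agents overlapped (unadjusted p = 0.0695). Sox9, the transcription factor that directs Sertoli fate, had 9.03, 9.22 and 8.82 in VZ cells and 8.95, 9.29 and 8.94 in DEHP cells and was nearly level (unadjusted p = 0.853). Inha, the inhibin alpha subunit, had 10.27, 9.42 and 9.37 in VZ cells and 8.46, 9.63 and 8.92 in DEHP cells (unadjusted p = 0.152). Sox9 and Inha were chosen after their values were seen. The part of Sertoli cell RNA in the difference of Hsd17b3 was not tested. Peritubular and interstitial markers leaned to the other side, with 11 of 17 lower in VZ and a median of -0.11, and so did collagen chains, with 33 of 44 lower and a median of -0.08. Endothelial markers (median -0.04), macrophage, mast cell and blood markers (-0.04) and granulosa markers (-0.01) had 0 members at an unadjusted p under 0.05 in limma.

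**Figure D4:**
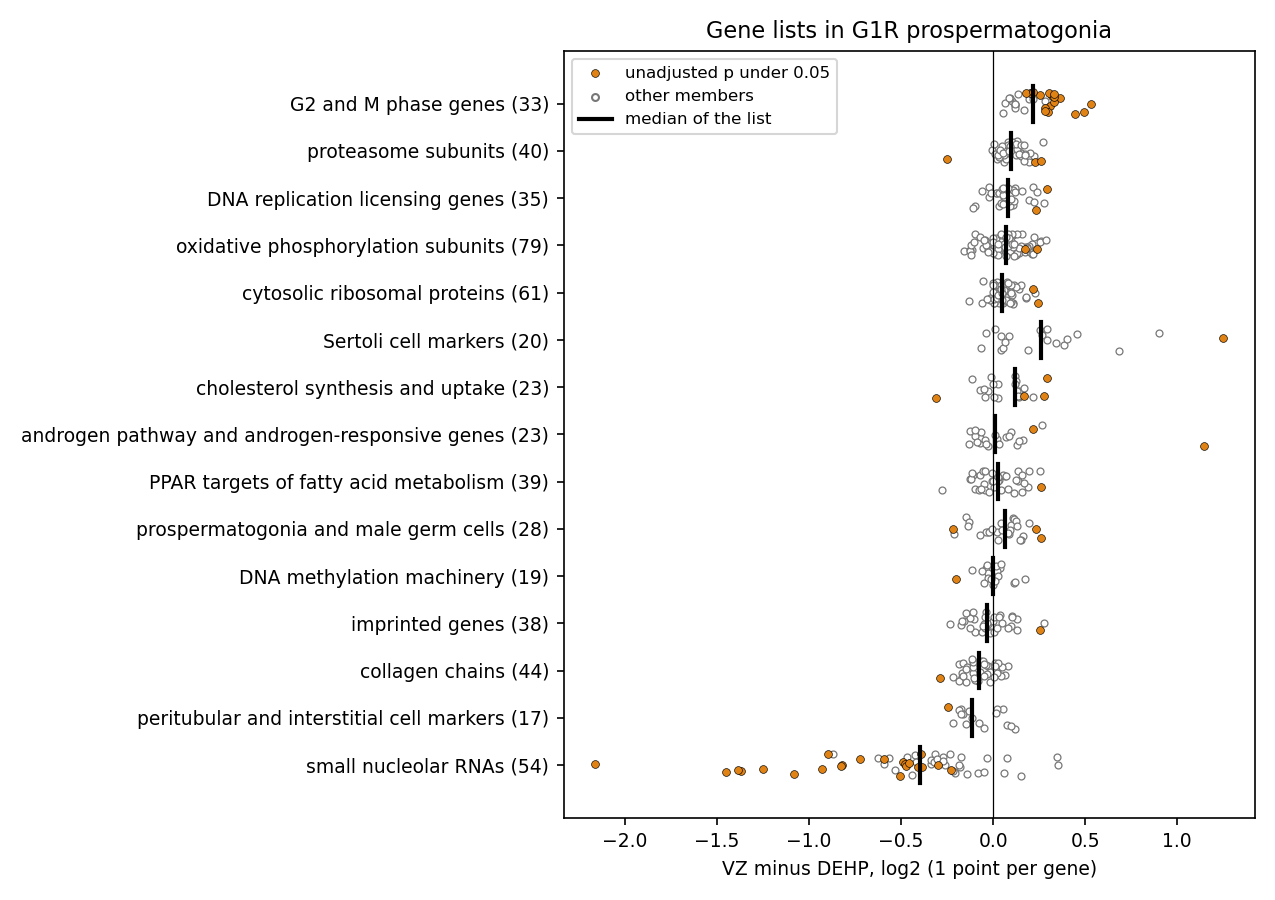
Differences between VZ and DEHP (VZ minus DEHP, log2, horizontal axis) of the members of 15 gene lists (vertical axis, with the number measured), 1 point per gene, filled where the unadjusted p was under 0.05 and with a bar at the median. The G2 and M phase list (median 0.22) and the snoRNA list (median -0.40) lie on opposite sides of 0, and the lists for androgen response, PPAR targets and DNA methylation are centred near 0.

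Pathways through which the agents are known to act showed little difference between them, where 3.51% of all genes had an unadjusted p under 0.05 in either direction. Of 23 androgen pathway and androgen-responsive genes, 12 were higher in VZ and 11 lower, with a median of 0.01, and for 21 of them the 95% interval lay within 1.5-fold. Besides Hsd17b3, Odc1, the rate-limiting enzyme of polyamine synthesis, had an unadjusted p under 0.05, with 9.82, 9.73 and 9.84 in VZ cells and 9.59, 9.61 and 9.54 in DEHP cells (difference 0.22). Of 39 PPAR targets of fatty acid metabolism, 22 were higher and 17 lower with a median of 0.02, and the intervals of 37 lay within 1.5-fold. Hsd17b4, of peroxisomal beta-oxidation, was the 1 member with an unadjusted p under 0.05 (difference 0.26), and its arrays overlapped. Of 27 genes of xenobiotic metabolism, Gstm5 (0.21) and the dim Cyp1a1 (-0.24) had an unadjusted p under 0.05, and both overlapped. Steroidogenic and fetal Leydig cell genes had 8 of 13 higher, with a median of 0.02 and Hsd17b3 as the only member at that p.

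Cholesterol synthesis and uptake genes had a median of 0.12, with 16 of 23 higher in VZ. Dhcr7 had 9.32, 9.29 and 9.15 in VZ cells and 8.96, 8.99 and 8.98 in DEHP cells (unadjusted p = 0.0028). Srebf2, the transcription factor that drives the pathway, had 10.80, 10.84 and 10.89 in VZ cells and 10.66, 10.67 and 10.68 in DEHP cells (difference 0.17, unadjusted p = 0.0221). Both separated the agents, whereas the methylsterol oxidase gene Msmo1 (0.29, unadjusted p = 0.0241) overlapped. Abca1, the cholesterol exporter, was lower in VZ, with 9.35, 9.29 and 9.02 in VZ cells and 9.39, 9.78 and 9.41 in DEHP cells (unadjusted p = 0.039). Abca1 was chosen after its values were seen. Thus 3 of 23 members were higher and 1 lower at that p, against 1.47% and 2.04% of all genes. Proteasome subunits were higher in VZ in 38 of 40 genes, as were 47.5% of all genes, with a median of 0.10 and 2 genes, Psma4 (0.23) and Psmc5 (0.26), at an unadjusted p under 0.05 (1.47% of all genes), while Psma8, the subunit of the testis, was lower (-0.25, with 2.04% of all genes lower at that p). Oxidative phosphorylation subunits were higher in 56 of 79, with a median of 0.07.

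Genes of germ cell identity and of the epigenome were close between the agents. Among 28 genes of prospermatogonia, Piwil4, the nuclear PIWI protein of fetal male germ cells, had 11.19, 11.34 and 11.42 in VZ cells and 11.19, 10.99 and 11.08 in DEHP cells (difference 0.23, unadjusted p = 0.0251). Stk31 (0.26) was also higher and Nanos3 (-0.22) lower at an unadjusted p under 0.05. Thus 10.7% of the list reached that p, against 3.51% of all genes. The list median was 0.06, and the intervals of 27 of the 28 lay within 1.5-fold. The 19 genes of DNA methylation had a median of 0.00, and the interval of every one lay within 1.5-fold. Tet2, which oxidizes methylcytosine, was the 1 member with an unadjusted p under 0.05, with 8.66, 8.67 and 8.61 in VZ cells and 8.75, 9.08 and 8.72 in DEHP cells (difference -0.20). All 35 histone H3 methylation genes had intervals within 1.5-fold too, with the demethylase gene Kdm1a (0.17) and the Polycomb gene Eed (0.24) at an unadjusted p under 0.05. The H3 methyltransferase genes Ehmt2 (0.07, 95% interval -0.12 to 0.26) and Kmt2c (-0.03, 95% interval -0.20 to 0.14) overlapped between the agents. Of 38 imprinted genes, 14 were higher and 24 lower with a median of -0.03, and Commd1 (0.25) was the 1 member at an unadjusted p under 0.05. Lists with little to separate the agents also included meiosis and oocyte genes (median 0.06 over 32 genes, 0 at an unadjusted p under 0.05 in limma), estrogen-responsive genes (median -0.04 over 20, 0 at that p) and immediate early and heat shock genes (median 0.01 over 31, 0 at that p). Pluripotency factors had 14 of 21 lower in VZ and a median of -0.09, and apoptosis genes had 14 of 27 lower and a median of -0.01. Among 29 genes of oxidative stress, the peroxiredoxin gene Prdx2 was the 1 member at an unadjusted p under 0.05, with 9.11, 8.76 and 8.65 in VZ cells and 7.95, 8.86 and 7.91 in DEHP cells (difference 0.60), and its arrays overlapped. Of the genes known from earlier results against oil, Tlcd4 had a difference of -0.14 (unadjusted p = 0.166) and Gm10353 of -0.18 (unadjusted p = 0.0663). The dim beta-globin gene Hbb-bh2 had 6.28, 6.13 and 6.15 in VZ cells and 5.87, 5.71 and 5.95 in DEHP cells, without overlap (difference 0.34, unadjusted p = 0.000897).

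The same contrast was computed in female germ cells and in the next generation, which share no array with it. In G1R females 0 of 35556 probes passed in limma, with 1205 (3.39%) at an unadjusted p under 0.05, and in G2R males 0 passed, with 1575 (4.43%) at that p. The G2 and M phase genes had a median of 0.01 in females and 0.00 in G2R males, with 18 and 17 of 33 higher in VZ. In females 0 were higher and 0 lower at an unadjusted p under 0.05, against 1.43% and 1.46% of all genes, and in G2R males 0 were higher and 1 lower, against 1.27% and 3.27% of all genes. The snoRNAs had a median of -0.06 in females and 0.17 in G2R males. In females 38 of 54 were lower in VZ and 16 higher, where 47.6% of all genes were higher. In G2R males 46 of 54 were higher in VZ, where 42.9% of all genes were. Sertoli markers had medians of 0.00 in females and 0.09 in G2R males. In females, 8 genes of the Y chromosome had a median difference of 0.32, with 2 higher in VZ at an unadjusted p under 0.05, and their part in the female comparison was not tested.

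The difference between these contrasts was itself tested. Against females, 0 of 35556 probes passed in limma (smallest adjusted p = 0.9998), with 868 (2.44%) at an unadjusted p under 0.05. Against G2R males, 0 passed (smallest adjusted p = 0.936), with 1258 (3.54%) at that p. No gene is therefore shown to differ in G1R males alone. At an unadjusted p under 0.05, the G1R male difference was above the female one in 6 of 33 G2 and M phase genes and below it in 0, against 0.863% of all genes above. It was above the G2R one in 9 and below it in 0, against 1.80% of all genes above. For Plk4, the difference was 0.00 in females and -0.04 in G2R males, so the male value was above the female one by 0.45 (unadjusted p = 0.00578) and above the G2R one by 0.49 (unadjusted p = 0.00183). Among snoRNAs, 6 of 54 were below the female difference and 25 below the G2R one at that p, against 1.43% and 1.60% of all genes. For Snora33, the difference was 0.10 in females and 0.08 in G2R males. For Snora73a it was -0.39 in females and 0.21 in G2R males, and for Snora73b -0.45 and 0.22.

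**Figure D5:**
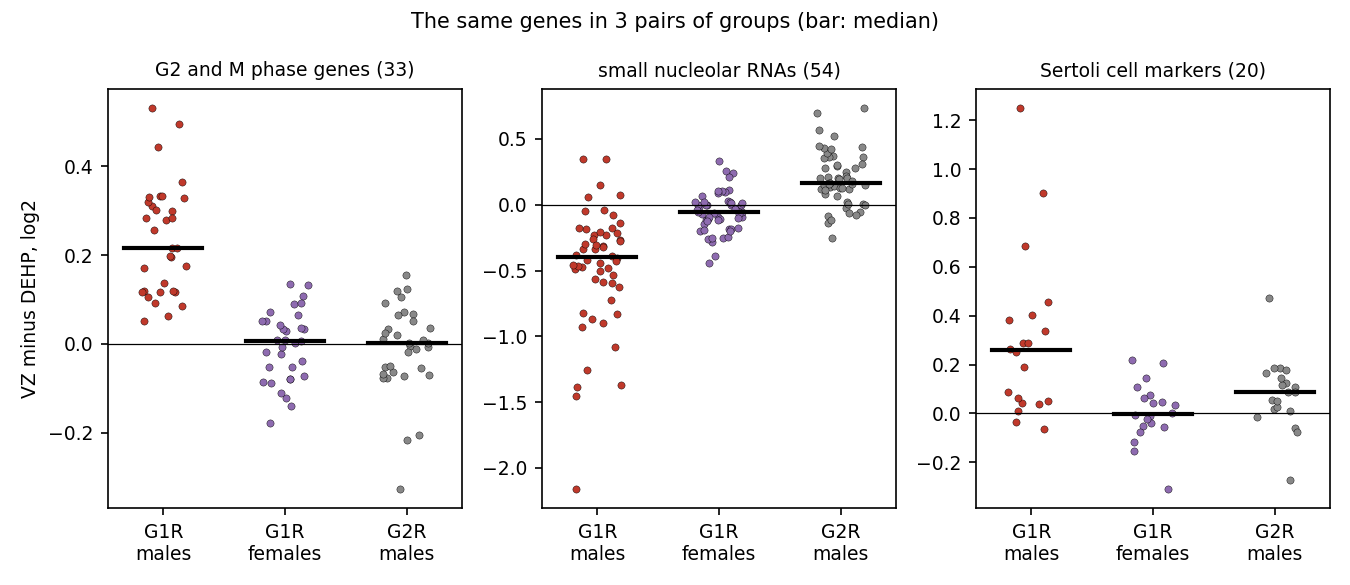
Differences between VZ and DEHP (VZ minus DEHP, log2, vertical axis) of the same genes in G1R males, G1R females and G2R males, 1 point per gene with a bar at the median, for 3 gene lists with a scale of its own each. The G2 and M phase median is 0.22 in G1R males, 0.01 in G1R females and 0.00 in G2R males, and that of the snoRNAs is -0.40, -0.06 and 0.17.

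Each agent was also read against the oil arrays, which both of these comparisons share, so their values are only set side by side. The G2 and M phase genes had a median of 0.19 in VZ minus oil, with 15 of 33 higher at an unadjusted p under 0.05 (8.99% of all genes were), and -0.05 in DEHP minus oil, with 2 higher (8.69% of all genes were) and 2 lower (7.43% of all genes were). The snoRNAs had a median of -0.46 in VZ minus oil, with 31 of 54 lower at that p (10.3% of all genes were), and -0.09 in DEHP minus oil, with 2 lower. Plk4 was 0.31 above oil in VZ cells and at -0.14 in DEHP cells. Ccna2 was 0.36 above oil in VZ cells and at -0.17 in DEHP cells.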

How the data were processed

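RNA of sorted germ cells was hybridized to Mouse Gene 1.0 ST arrays. The authors normalized them by RMA in Partek (version not given in the sources used here), and the deposited values are log2 signals. All 32 columns were mapped by title to 11 groups. All arrays entered 1 fit of group means in limma 3.58.1 in R 4.3.3 (21 residual and 3.67 prior degrees of freedom), which assumes a like spread in every group. The contrast was VZ minus DEHP in G1R males, called where the Benjamini-Hochberg adjusted p, taken over the 35556 probes together, was under 0.05. Genes were named only from the 21789 probes with a single gene, and a gene of several probes was represented in its list by the brightest over all arrays. The 12146 probes outside the annotation stayed in the counts. Eligible to be named were the 12 single genes per direction with the smallest p at a mean signal of at least 6.7, up to 3 genes per list, genes named in the study text and genes from earlier results, and others are said to be chosen by size or after their values were seen. The members and the 34 lists were chosen with earlier results of these data known. List symbols such as Snora were read as box classes. The fit was tested on simulated data. Precision is limited by 3 arrays per group. The labels do not say that arrays of the same replicate number form pairs, and the main fit did not pair them. Alternatives were unmoderated contrasts, only the arrays compared, only G1R males, a filter on dim probes, single-gene probes, cyclic loess, array weights, an intensity trend, a replicate block and leaving out each array. Figures used matplotlib 3.10.9.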

Additional observations from a re-analysis of the deposited data

How the results depend on the processing

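The count of 0 probes past the adjusted threshold for VZ minus DEHP in G1R males held in every alternative that kept all 6 arrays, and leaving out single arrays gave 0 to 9, with 9 only without DEHP array 3. The replicate number as a block, with only the arrays compared, gave 0 as well. Same-numbered arrays deviated from their group means with correlations of -0.05, -0.08 and -0.06 over all probes. Such correlations cannot tell whether these arrays shared a litter or a batch. Leaving out single arrays gave 0 to 5 probes in females, 0 to 1 in G2R males, 0 to 3 for the difference to females and 0 for the difference to G2R males, with the 5 and the 3 both without DEHP female array 2, which leaves a lone array that is assumed to vary like the others. At 1.5-fold and an unadjusted p under 0.05, 248 probes became 107 above a mean signal of 6.7 and 24 in a refit on the single-gene probes alone (21 of these probes in the fit of all probes), and ran from 187 to 403 when single arrays were left out, with 403 without DEHP array 3. At the study's looser fold threshold, 1443 became 828 in that refit, which tests fewer probes, and ran from 1098 to 1916 when single arrays were left out. With all 6 arrays kept, the count rose above 1916 in 3 alternatives. These were only the arrays compared, only G1R males, and array weights. The count of 1443 therefore depended on the fit. Of 983 values of 66 named genes under the alternatives, 982 kept their direction and 1 passed an adjusted p of 0.05 (Snora33 without DEHP array 3). Kmt2c ran from -0.071 to 0.032 when single arrays were left out, and was positive only without VZ array 3. For lists, alternatives were chosen after seeing the data. With only the 6 arrays, or with the block, 6 of 20 Sertoli markers had an unadjusted p under 0.05. The cause of these shifts was not tested. Signals near background limit what dim probes can show.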
